A study of Mus musculus with 12 samples.

Results

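H3K4 methyltransferases and demethylases were followed through RNA-seq of mouse mammary tissue. The group held 10 genes of the 23301 gene names found in the tables of all 12 samples, and each was taken by its own name, on 1 row per table. The 6 methyltransferases were Kmt2a, Kmt2b, Kmt2c, Kmt2d, Setd1a and Setd1b, and the 4 demethylases were Kdm1a, Kdm5a, Kdm5b and Kdm5c. The samples came from female mice of 12 weeks, with 3 replicates in each of 4 groups. Normal samples were untreated mammary glands of FVB wild type mice, with abdominal and inguinal glands of 3 mice pooled for each replicate. Tumor samples were untreated tumors of the thoracic gland, each from 1 heterozygous MMTV-PyVT mouse. In this transgenic line, also on the FVB background, the promoter of mouse mammary tumor virus drives the polyoma middle T oncogene in the mammary epithelium. DMSO and C646 samples were the biggest tumors of MMTV-PyVT mice injected with the solvent or with C646, an inhibitor of the acetyltransferase p300. The labels give 1 mg/kg for both injections. Tissue, gland position and pooling of mice changed together between the Normal and Tumor groups and cannot be told apart.

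Methylation of lysine 4 of histone H3 marks active regulatory DNA, with the trimethyl form at promoters and the monomethyl form at enhancers. The mark is written by SET domain enzymes that work in large complexes around a shared core of small subunits. SETD1A and SETD1B place most trimethylation at promoters, KMT2A and KMT2B (MLL1 and MLL2) act at selected promoters such as those of developmental genes, and KMT2C and KMT2D (MLL3 and MLL4) place monomethylation at enhancers. The mark is removed by KDM1A (LSD1), a flavin-dependent enzyme that acts on the mono- and dimethyl forms, and by the KDM5 family of dioxygenases, which act on the di- and trimethyl forms. In the study, H3K4me3 was one of the marks compared between tumor and normal chromatin. The present values are mRNA levels and do not measure the enzymes' activity or the mark.

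The levels are FPKM, the fragments of a gene divided by its length and by the fragments mapped in the library, as the authors deposited them. The FPKM of all rows summed to between 550599.2 and 783718.6 in the Normal and Tumor samples and to between 526854.9 and 638605.6 in the DMSO and C646 samples. Replicates of a group correlated at r = 0.971 or more across gene names in the first experiment and at 0.954 or more in the second, where genes are not independent replicates. Tissue markers differed widely between Normal and Tumor. Summed over their lists, 5 adipocyte markers ranged from 16470 to 21020 FPKM in Normal and from 84.4 to 1232 in Tumor, with Tumor replicate 1 the highest, and 6 lymphocyte markers ranged from 370.9 to 474.5 in Normal and from 2.43 to 3.62 in Tumor, where the B cell marker Ms4a1 was listed at 0 in each sample. Endothelial markers (4 genes) ranged from 101.6 to 126.1 against 12.95 to 22.0, and fibroblast markers (3 of 4 genes had a row) from 1184 to 1311 against 181.5 to 432.9. The samples labelled as tumor held the defining markers of luminal epithelium, whose 5 genes summed to 2225 to 3244 FPKM against 400.8 to 842.9 in Normal. Of these, 4 passed as higher, while Krt19 did not pass and overlapped (174.4 to 259.7 in Tumor against 118 to 269.9 in Normal). Proliferation markers (5 genes) were at 90.0 to 143.9 against 18.5 to 39.1, and skeletal muscle markers (4 genes) at 1074 to 2884 against 6.75 to 49.9. The sum of 4 macrophage markers was 163 to 231.8 against 131.1 to 146.2, but 1 of them passed as higher (Cd14, from a mean of 40.2 to 155.8) and 3 as lower, such as Csf1r (49.0 to 10.1). The sum of 4 basal markers overlapped, while 1 passed as higher (Krt14, from a mean of 35.5 to 103.1) and 2 as lower, such as Acta2 (130.7 to 19.9). In bulk tissue, fewer cells of a type and less RNA per cell cannot be told apart.

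Sequences around the start sites are shown for the 3 methyltransferases that fell in Tumor and the 2 demethylases that rose, as described in the next paragraphs. Each runs 5′ to 3′ on the strand of the gene, from 250 bases before to 50 bases after the RefSeq start (GRCm38.p6), with capitals marking GC boxes (GGGCGG or its reverse complement) and CCAAT boxes (CCAAT or its reverse complement). The regions are chr9:44881240-44881539 for Kmt2a, chr5:25498734-25499033 for Kmt2c, chr15:98871156-98871455 for Kmt2d and chr4:136602674-136602973 for Kdm1a, all on the minus strand, and chr1:134559928-134560227 for Kdm5b on the plus strand.
Kmt2a: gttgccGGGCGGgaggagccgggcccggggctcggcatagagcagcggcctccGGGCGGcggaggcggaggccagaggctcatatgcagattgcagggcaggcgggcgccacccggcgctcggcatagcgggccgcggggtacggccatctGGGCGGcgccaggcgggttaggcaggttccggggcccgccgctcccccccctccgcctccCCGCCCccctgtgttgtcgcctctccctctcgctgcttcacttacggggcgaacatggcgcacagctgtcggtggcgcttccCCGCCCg
Kmt2c: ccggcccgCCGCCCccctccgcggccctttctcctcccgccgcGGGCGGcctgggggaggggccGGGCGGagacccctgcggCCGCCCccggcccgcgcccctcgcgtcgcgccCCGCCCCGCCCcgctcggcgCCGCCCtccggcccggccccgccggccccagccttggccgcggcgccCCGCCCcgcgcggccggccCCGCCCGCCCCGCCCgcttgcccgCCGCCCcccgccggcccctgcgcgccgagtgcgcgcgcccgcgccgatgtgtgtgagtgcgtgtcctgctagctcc
Kmt2d: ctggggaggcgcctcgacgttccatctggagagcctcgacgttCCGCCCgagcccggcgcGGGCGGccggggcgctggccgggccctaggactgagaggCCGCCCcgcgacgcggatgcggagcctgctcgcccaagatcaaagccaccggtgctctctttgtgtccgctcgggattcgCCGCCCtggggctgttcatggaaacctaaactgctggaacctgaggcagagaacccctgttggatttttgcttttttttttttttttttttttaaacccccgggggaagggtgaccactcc
Kdm1a: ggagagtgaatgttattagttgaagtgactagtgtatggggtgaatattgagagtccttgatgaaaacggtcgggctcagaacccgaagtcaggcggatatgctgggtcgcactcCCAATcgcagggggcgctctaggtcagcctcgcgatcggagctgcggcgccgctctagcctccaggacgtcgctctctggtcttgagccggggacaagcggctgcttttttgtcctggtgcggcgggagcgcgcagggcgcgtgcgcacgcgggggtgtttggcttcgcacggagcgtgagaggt
Kdm5b: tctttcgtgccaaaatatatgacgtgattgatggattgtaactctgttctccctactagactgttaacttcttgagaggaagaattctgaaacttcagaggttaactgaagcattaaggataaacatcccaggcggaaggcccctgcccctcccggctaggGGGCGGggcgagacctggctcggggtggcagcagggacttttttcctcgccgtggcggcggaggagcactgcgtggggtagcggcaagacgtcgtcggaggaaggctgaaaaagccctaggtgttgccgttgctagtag
The table held 7 of the 10 genes, all but Kmt2b, Setd1b and Kdm5a. The Kmt2c window was the richest of the 7 in G and C, at 88% with 56 CpG, and the Kdm5c window the poorest, at 47% with 13 CpG, against a median of 52.7% and 7 CpG over all 32851 promoters in the table. The GC box was found 5 times in Kmt2a, 12 times in Kmt2c, 4 times in Kmt2d and once in Kdm5b, with some of the Kmt2c matches adjoining or overlapping, and no match was found in Setd1a, Kdm1a or Kdm5c. It occurs in 35.7% of all promoters. CCAAT was found once each in Kdm1a and Kdm5c and occurs in 37.4% of all promoters. The E-box (CACGTG), the TATA box (TATAAA), the ETS site (CCGGAAG) and the NRF1 site (GCATGCGC), searched on both strands, were in none of the 7 windows and occur in 7.2%, 13.6%, 8.9% and 2.7% of all promoters.

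All 10 genes were expressed in each sample, at between 3.29 and 55.3 FPKM. FPKM is divided by length, so the genes were ordered within a group. The order and its shifts between groups are not adjusted for the length trend described below, which differed between Normal and Tumor. In Normal, Kdm1a (23.2 ± 3.45, mean ± SD, n = 3) and Kmt2d (22.6 ± 1.93) stood highest and their ranges overlapped. They lay at the percentiles 71.6 and 71.1 of the tested genes, while Kdm5a was the lowest at 5.43 ± 0.429, at the percentile 30.4, below the ranges of all the others. The 6 genes from Kdm5c (13.6 ± 0.416) down to Setd1b (10.02 ± 1.37) overlapped with their neighbours in the order. In Tumor, Kdm1a (54.0 ± 1.07, percentile 85.9) stood apart from all others, Kdm5b (25.8 ± 7.13) was next and overlapped with Kmt2b (21.6 ± 1.48), and Kdm5a remained the lowest at 4.30 ± 0.178. Kmt2a moved from the fifth place in Normal to the seventh in Tumor. In the injected tumors, Kdm1a was again the highest (48.4 ± 4.09 in DMSO and 44.2 ± 6.74 in C646), and the lowest was Kmt2c (4.10 ± 0.933 and 4.83 ± 0.769).

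**Figure D1:**
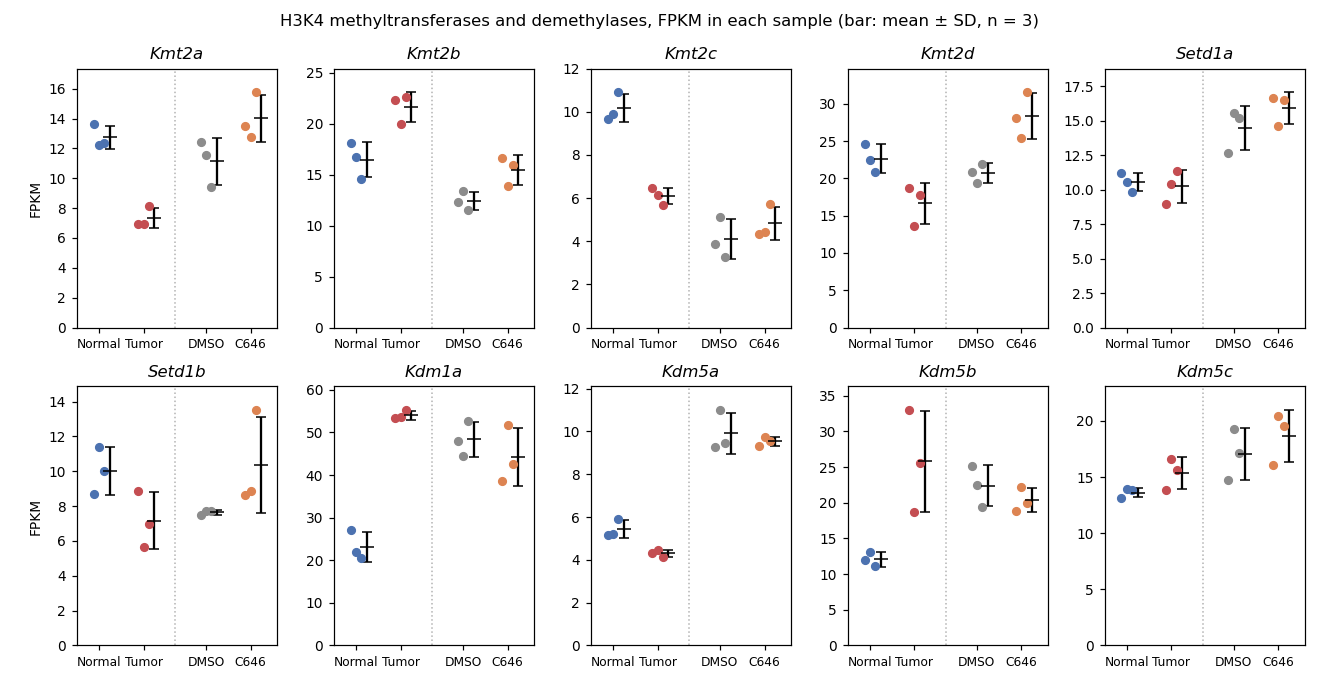
FPKM (vertical axes, starting at 0) of the 10 genes in each sample of the Normal, Tumor, DMSO and C646 groups; points are samples and black bars the mean ± SD of 3. The dotted line divides the 2 experiments, whose tables were made separately. Kdm1a, Kdm5b and Kmt2b lie higher in each Tumor sample than in any Normal sample, and Kmt2a, Kmt2c, Kmt2d and Kdm5a lie lower.

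The first comparison asked how the enzymes differ between tumor and normal tissue. Of the 10 genes, 3 rose in Tumor (Kdm1a, Kdm5b and Kmt2b), 3 fell (Kmt2a, Kmt2c and Kmt2d) and 4 did not pass the test, which was limma on log2(FPKM + 0.03125) with Benjamini-Hochberg adjustment over all genes tested and a threshold of 0.05. Among all 13031 genes tested, 60.5% passed, 28.8% higher and 31.7% lower, so the share of these enzymes that passed (6 of 10) was close to that of genes in general. The groups did not overlap for 7 of the 10 genes, against 68.9% of all genes tested. The median log2 change was -0.47 over the 6 methyltransferases and 0.61 over the 4 demethylases, beside -0.016 over all genes tested. All methyltransferases but Setd1a have a longest annotated transcript over 8000 nt, and the median over the 604 such genes tested was -0.41.

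Transcript length moved with this comparison. The median log2 change was 0.29 over 2745 genes whose longest annotated transcript is under 2000 nt, 0.045 over 5041 genes of 2000 to 4000 nt, -0.20 over 3812 genes of 4000 to 8000 nt and -0.41 over 604 genes above 8000 nt, of which 43.4% passed as lower and 15.1% as higher. Of the 10 genes, 7 have a transcript over 8000 nt, and the 3 that fell are the longest, at 16470 nt (Kmt2a), 14967 nt (Kmt2c) and 19823 nt (Kmt2d). With a smooth trend on transcript length removed from each sample, a step added after seeing the data, none of the 10 genes passed as lower and 4 passed as higher (Kmt2b, Kdm1a, Kdm5b and Kdm5c). After this step, the methyltransferases lay at -0.31 (Kmt2a) to 0.80 (Kmt2b) and the demethylases at 0.12 (Kdm5a) to 1.47 (Kdm5b). The values under this step are given beside each gene as length-adjusted, and why length moved with the groups was not tested.

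Kmt2a (chr9:44803355-44881296, minus strand), the gene of MLL1, which maintains the expression of homeobox genes, was at 13.6, 12.2 and 12.4 FPKM in Normal and at 6.96, 6.96 and 8.12 in Tumor. The groups did not overlap, and Tumor lay at 0.576 of the Normal mean. The log2 change was -0.80 ± 0.14 (SE, adjusted p = 0.00225), and the length-adjusted one was -0.31 (adjusted p = 0.0694).

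Its paralog Kmt2b (chr7:30568858-30588726, minus strand), which encodes MLL2, went the other way. It was at 18.1, 16.8 and 14.6 FPKM in Normal and at 22.3, 19.9 and 22.7 in Tumor, again with no overlap. The log2 change was 0.39 ± 0.14 (SE, adjusted p = 0.0404). This call was close to the threshold and was lost when any 1 library other than Tumor replicate 2 was left out (adjusted p up to 0.139), while length adjustment gave 0.80 (adjusted p = 0.00302). Within each sample, the ratio of Kmt2b to Kmt2a FPKM was 1.32, 1.37 and 1.18 in Normal and 3.20, 2.87 and 2.79 in Tumor, with no overlap. In the injected tumors, whose tables were made separately, it was 0.987 to 1.23 in DMSO and 1.01 to 1.23 in C646.

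Kmt2c (chr5:25271798-25498783, minus strand), an enhancer methyltransferase, was at 9.69, 9.89 and 10.9 FPKM in Normal and at 6.45, 6.13 and 5.69 in Tumor. The log2 change was -0.74 ± 0.14 (SE, adjusted p = 0.00323), and the length-adjusted one was -0.26 (adjusted p = 0.186). Its partner in function Kmt2d (chr15:98831669-98871204, minus strand) was at 24.7, 22.4 and 20.8 FPKM in Normal and at 18.7, 13.6 and 17.8 in Tumor. Both genes were lower in each Tumor sample than in any Normal sample. The Kmt2d change of -0.45 ± 0.16 (SE, adjusted p = 0.0465) was close to the threshold, was lost when any 1 library other than Tumor replicate 1 was left out (adjusted p up to 0.144), and turned to 0.048 (adjusted p = 0.829) with length adjustment. The ratio of Kmt2d to Kmt2c overlapped between the groups, at 1.91 to 2.55 in Normal and 2.21 to 3.13 in Tumor.

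The SET1 genes did not pass. Setd1a (chr7:127776670-127800122, plus strand) was at 11.2, 10.6 and 9.87 FPKM in Normal and 8.97, 10.4 and 11.3 in Tumor, with overlapping groups and a log2 change of -0.047 (95% interval -0.40 to 0.30, adjusted p = 0.7997), whose sign turned under quantile normalization (0.077), with length adjustment (0.28) and without Tumor replicate 1 (0.045). The annotated exons of Setd1a share 52.3% of their bases with other genes, 3523 nt of them with Gm49388 on the same strand, and reads from these bases cannot be told apart. Setd1b (chr5:123142193-123168629, plus strand) was at 8.67, 11.4 and 9.99 FPKM in Normal and 8.87, 5.63 and 6.99 in Tumor. Tumor replicate 1 lay within the Normal range and the other Tumor samples below it. The log2 change was -0.50 ± 0.21 (SE, adjusted p = 0.0723), and without Tumor replicate 1 it was -0.66 (adjusted p = 0.0216), while length adjustment gave -0.081 (adjusted p = 0.784).

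Kdm1a (chr4:136550540-136602723, minus strand), the gene of LSD1, had the largest log2 change of the 10 genes, although that of Kdm5b was larger with length adjustment and without Tumor replicate 2 (1.27 against 1.24). Kdm1a was at 27.1, 21.8 and 20.6 FPKM in Normal and at 53.3, 53.6 and 55.3 in Tumor, where the replicates lay close together. The mean was 2.33 times that of Normal, with a log2 change of 1.23 ± 0.14 (SE, adjusted p = 3.17e-04). The call held in all 17 alternatives, with changes of 1.12 to 1.35, and the length-adjusted change was 1.19 (adjusted p = 4.54e-04). Its longest transcript is the shortest of the group, at 3028 nt.

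Kdm5b (chr1:134560171-134635285, plus strand), a demethylase of trimethylated H3K4 also known from breast cancer as PLU-1, was at 12.0, 13.2 and 11.1 FPKM in Normal and at 33.0, 18.7 and 25.6 in Tumor. Each Tumor sample was above the Normal range, although the Tumor samples were far apart. The log2 change was 1.06 ± 0.22 (SE, adjusted p = 0.00431). It was 0.86 (adjusted p = 0.00642) without Tumor replicate 1, and 1.47 (adjusted p = 0.00177) with length adjustment. Among the Tumor samples, replicate 1 had the highest Kdm5b and the highest luminal, adipocyte, macrophage, endothelial, fibroblast and muscle marker sums, and the lowest proliferation sum.

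The other KDM5 genes did not pass. Kdm5a (chr6:120364124-120444574, plus strand) was at 5.16, 5.20 and 5.92 FPKM in Normal and 4.32, 4.47 and 4.12 in Tumor. The groups did not overlap, but the log2 change of -0.33 (95% interval -0.70 to 0.036, adjusted p = 0.104) turned to 0.035 under quantile normalization and to 0.12 with length adjustment. Kdm5c (chrX:152233020-152274535, plus strand), an X-linked gene, was at 13.1, 13.9 and 13.8 FPKM in Normal and 13.8, 16.6 and 15.6 in Tumor, with a log2 change of 0.17 (95% interval -0.14 to 0.48, adjusted p = 0.295) and a length-adjusted one of 0.50 (adjusted p = 0.0092). The ratio of Kdm5b to Kdm5a within a sample was 2.33, 2.53 and 1.87 in Normal and 7.63, 4.19 and 6.22 in Tumor.

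**Figure D2:**
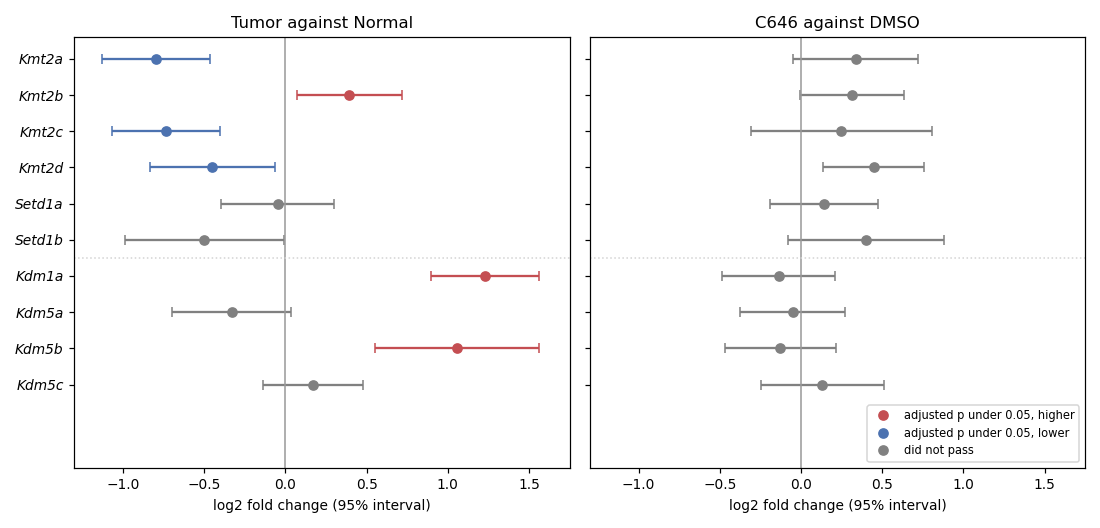
Log2 fold change (horizontal axis) with its 95% interval for the 10 genes in Tumor against Normal (left) and in C646 against DMSO (right), from limma on 3 samples per group; the dotted line divides methyltransferases from demethylases. On the left, Kdm1a is at 1.23 and Kmt2a at -0.80; on the right, none passed at an adjusted p of 0.05, and the 6 methyltransferases lie between 0.14 and 0.45.

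Summed over the 6 methyltransferases, FPKM was 85.9, 83.3 and 78.6 in Normal and 72.2, 62.6 and 72.6 in Tumor, and summed over the 4 demethylases 57.4, 54.1 and 51.4 against 104.4, 93.4 and 100.6. The ratio of the second sum to the first was 0.668, 0.650 and 0.654 in Normal and 1.45, 1.49 and 1.39 in Tumor. These sums are not length-adjusted, and Kmt2a, Kmt2c and Kmt2d, the 3 methyltransferases that fell, did not pass as lower with length adjustment. Kdm1a alone gave 53.3 to 55.3 FPKM of the demethylase sum in Tumor, so the sums mostly follow the most abundant genes. The summed luminal, proliferation, macrophage and skeletal muscle markers were higher, and the summed lymphocyte, endothelial, fibroblast and adipocyte markers lower, in each Tumor sample than in any Normal sample. Single markers could differ from their sum, as with the macrophage list. Their part in these differences was not tested.

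**Figure D3:**
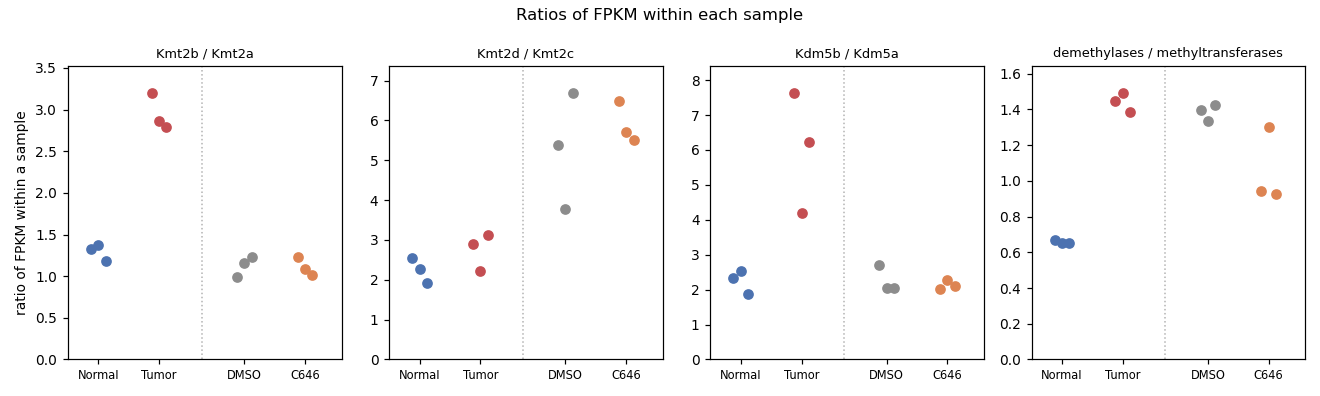
Ratios of FPKM within each sample (vertical axes, starting at 0) for Kmt2b to Kmt2a, Kmt2d to Kmt2c, Kdm5b to Kdm5a and the summed demethylases to the summed methyltransferases; each point is 1 of 3 samples per group. The ratio of the sums is 0.650 to 0.668 in Normal and 1.39 to 1.49 in Tumor, and each C646 sample lies below each DMSO sample.

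The enzymes act with partners, which were taken from 7 lists of complex subunits, related enzymes and readers of the mark. Of 46 genes listed, 43 had a row and 42 were tested, of which 10 rose in Tumor, 11 fell and 21 did not pass, with a median log2 change of -0.23. The share that passed did not exceed the 60.5% of all genes tested. The core subunits shared by all the complexes all rose, 3 of 3 tested, beside 28.8% higher over all genes tested. Dpy30 rose by 1.164 ± 0.12 (SE, adjusted p = 2.31e-04), Wdr5, the scaffold, by 0.71 ± 0.12 (adjusted p = 0.00212) and Ash2l by 0.67 ± 0.14 (adjusted p = 0.00398). Dpy30 was at 49.3, 48.3 and 45.7 FPKM in Normal and at 106.7, 116.7 and 98.4 in Tumor. No value is given for Rbbp5, which was matched to no row.

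Subunits particular to each kind of complex were taken list by list, beside 28.8% higher and 31.7% lower over all genes tested. In the SET1 complexes, Cxxc1, which binds unmethylated CpG, rose by 0.38 (adjusted p = 0.0415) and Bod1l fell by 0.80 (adjusted p = 0.00555), with 2 of 4 not passing. In the MLL1/2 complexes, 1 of 3 passed, Men1 (menin), which rose by 0.80 (adjusted p = 0.00191) from 20.1, 22.3 and 20.8 FPKM to 41.7, 32.7 and 36.6. In the MLL3/4 complexes, 2 of 3 fell, the H3K27 demethylase gene Kdm6a by 0.69 (adjusted p = 0.0156) and the coactivator gene Ncoa6 by 0.44 (adjusted p = 0.0467). Among 11 partners of LSD1, such as the CoREST and histone deacetylase genes, 1 passed, Zmym3, which rose by 0.52 (adjusted p = 0.0305).

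Other enzymes reported to act on H3K4 moved both ways, with 2 of 7 higher and 3 lower, beside 28.8% higher and 31.7% lower over all genes tested. Kmt2e, an MLL family gene whose SET domain is thought to lack activity, was at 11.1, 10.8 and 11.8 FPKM in Normal and 2.32, 4.67 and 3.13 in Tumor, and fell by 1.78 ± 0.26 (SE, adjusted p = 9.00e-04). Kdm1b, the paralog of Kdm1a, fell by 1.12 ± 0.33 (SE, adjusted p = 0.0216), opposite in direction to Kdm1a. Smyd1, a gene of striated muscle, was at 1.15, 0.527 and 0.502 FPKM in Normal and 2.15, 2.16 and 1.08 in Tumor, groups that overlapped, and rose by 1.31 ± 0.45 (SE, adjusted p = 0.0372). Skeletal muscle markers were higher in the same tumors, and their part in this was not tested. Smyd2 rose by 0.83 (adjusted p = 0.0184). The Y-linked Kdm5d was listed at 0 in each of the 12 samples, all from females. Among 11 readers of the mark, 2 rose and 5 fell, a share near the 60.5% of all genes tested, and the 4 with the widest changes were Phf2 (-0.90, adjusted p = 8.13e-04), Ing5 (-0.78, adjusted p = 0.0374), Ing4 (0.78, adjusted p = 0.012) and Ing3 (-0.72, adjusted p = 0.0127). With length adjustment, 10 of the 42 partner and reader genes passed as higher and 6 as lower. Of the 21 that passed without it, 13 kept their calls, the 3 core subunits, Men1, Zmym3, Kmt2e, Kdm1b, Phf2 and Ing3 among them, and 8 lost theirs, among them both SET1 genes and both MLL3/4 genes named above and Ing5. Another 3 passed only with length adjustment, which were Rcor1 (0.72, adjusted p = 0.0132), Hdac1 (-0.66, adjusted p = 0.0339) and Ing1 (-0.45, adjusted p = 0.0292), named after their values were seen.

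**Figure D4:**
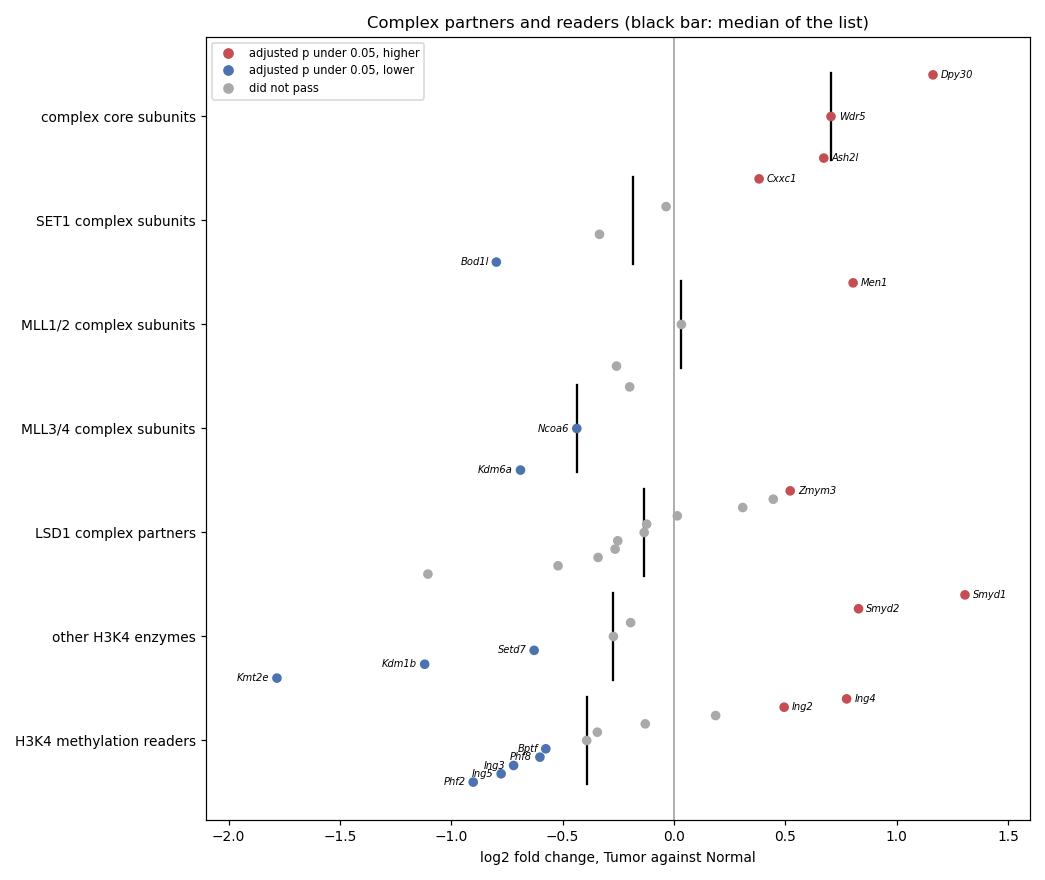
Log2 fold change in Tumor against Normal (horizontal axis) of the 42 tested genes of 7 partner and reader lists; each point is a gene, named where its adjusted p was under 0.05, and black bars are list medians. The 3 core subunits lie at 0.67 to 1.164, and the 3 MLL3/4 subunits at -0.69 to -0.20.

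The second comparison asked whether injection of the p300 inhibitor changed these genes in tumors. None of the 10 genes passed, and neither did any other of the 12083 genes tested (0% passed, lowest adjusted p = 0.99, limma with Benjamini-Hochberg adjustment). At an unadjusted p under 0.05 there were 384 genes (3.18%), of which 1 was among the 10. All 6 methyltransferases had a higher mean in C646, with log2 differences of 0.14 to 0.45 and a median of 0.33, and of the 4 demethylases 1 did, with a median of -0.089. Over all genes tested, the median was -0.015 and 46.9% lay above 0. For 4 of the 10 genes each C646 sample was above each DMSO sample, against 4.04% of all genes tested, and for none was it below, against 4.52%.

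Kmt2d was at 20.9, 19.3 and 22.0 FPKM in DMSO and at 28.1, 25.5 and 31.6 in C646. The groups did not overlap, and the log2 difference was 0.45 (95% interval 0.14 to 0.76, adjusted p = 0.99). Kmt2b was at 12.3, 13.4 and 11.6 FPKM in DMSO and at 16.6, 13.8 and 16.0 in C646, a difference of 0.32 (95% interval -0.0072 to 0.64). Kmt2a was at 12.4, 11.5 and 9.39 FPKM in DMSO and at 13.5, 12.7 and 15.8 in C646, a difference of 0.34 (95% interval -0.050 to 0.72). These 3 genes and Setd1b were those without overlap between the groups. Setd1b was at 7.49, 7.74 and 7.73 FPKM in DMSO and at 8.63, 8.89 and 13.5 in C646, a difference of 0.40 (95% interval -0.077 to 0.88) that was 0.19 without C646 replicate 3. Apart from Kmt2d, the intervals of these genes reach from just below 0 to as far as 0.88 on the log2 scale.

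The remaining methyltransferases overlapped. Kmt2c was at 3.88, 5.12 and 3.29 FPKM in DMSO and at 4.33, 4.45 and 5.72 in C646, a difference of 0.25 (95% interval -0.31 to 0.81). Setd1a was at 12.7, 15.5 and 15.2 FPKM in DMSO and at 16.7, 14.6 and 16.5 in C646, a difference of 0.14 (95% interval -0.19 to 0.47). C646 replicate 3 had the highest value of the 6 samples for Kmt2a, Kmt2c, Kmt2d and Setd1b.

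Demethylase levels overlapped throughout. Kdm1a was at 48.0, 44.5 and 52.7 FPKM in DMSO and at 38.6, 51.7 and 42.5 in C646, a difference of -0.14 (95% interval -0.49 to 0.21). Kdm5b was at 25.2, 22.4 and 19.4 FPKM against 18.9, 22.3 and 20.0, a difference of -0.13 (95% interval -0.47 to 0.21). Both intervals end at 0.21 and overlap those of all 6 methyltransferases, of which that of Kmt2d starts highest, at 0.14. A difference between methyltransferases and demethylases was not tested. Kdm5a was at 9.27, 11 and 9.46 FPKM against 9.33, 9.74 and 9.56, a difference of -0.050 (95% interval -0.37 to 0.27) that was 0.027 without DMSO replicate 2. Kdm5c was at 14.7, 19.3 and 17.2 FPKM against 16.1, 20.4 and 19.5, a difference of 0.13 (95% interval -0.25 to 0.51).

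Summed FPKM of the 6 methyltransferases was 69.6, 72.7 and 69.2 in DMSO and 87.9, 80.0 and 99.0 in C646, with no overlap, while the 4 demethylases summed to 97.1, 97.2 and 98.7 against 82.8, 104.1 and 91.6, which overlapped. The ratio of demethylases to methyltransferases was 1.40, 1.34 and 1.43 in DMSO and 0.943, 1.30 and 0.925 in C646. Transcript length moved with this comparison as well, in the opposite direction to the first. The median log2 difference was -0.090 for transcripts under 2000 nt and 0.075 above 8000 nt, where 62.5% of 574 genes lay above 0 and 7% had each C646 sample above each DMSO sample. With the length trend removed, the 6 methyltransferases lay at 0.087 (Setd1a) to 0.34 (Kmt2d). Adipocyte markers summed to 9.95, 40.6 and 46.6 FPKM in DMSO and to 55.8, 256.7 and 281.8 in C646, again with no overlap, and their part in the differences was not tested. The sums of the other 8 marker lists overlapped between DMSO and C646.

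**Figure D5:**
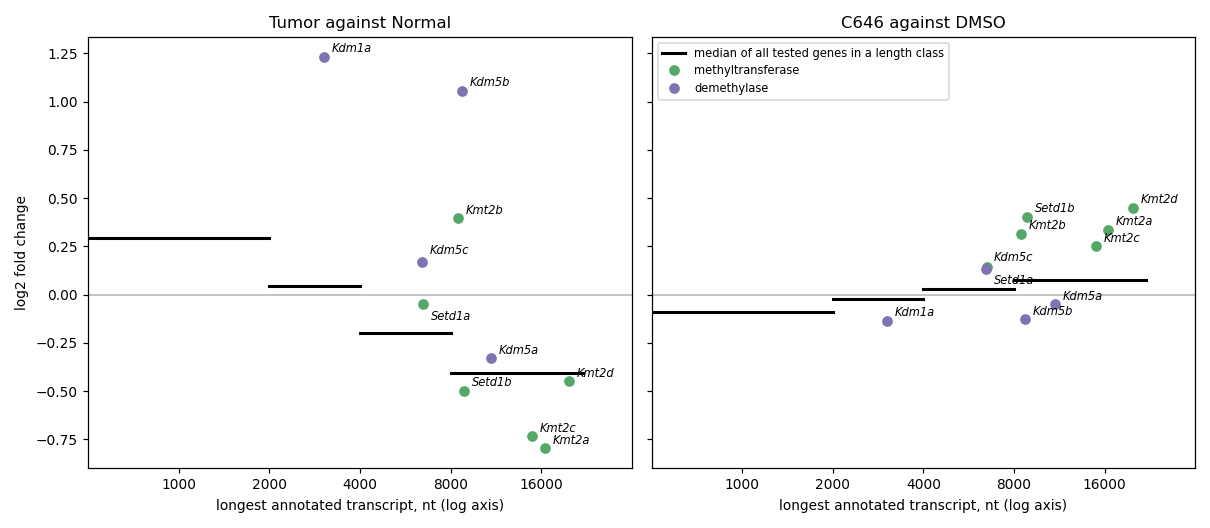
Log2 fold change (vertical axis) against the longest annotated transcript (horizontal log axis, nt) for the 10 genes in Tumor against Normal (left) and C646 against DMSO (right); black lines are the medians of all tested genes in 4 length classes. The medians step down from 0.29 to -0.41 on the left and up from -0.090 to 0.075 on the right.

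None of the 41 tested partner and reader genes passed in C646 against DMSO, and 30 of them lay above 0, with a median of 0.11. Over all genes tested, 46.9% lay above 0, a share that rose with transcript length from 34% under 2000 nt to 62.5% above 8000 nt. The core subunits were at differences of -0.054 (Ash2l) to 0.16 (Dpy30). The widest differences elsewhere were those of Rcor2 (-1.162), a CoREST gene at 8.76, 1.67 and 8.73 FPKM in DMSO and 2.77, 3.11 and 1.30 in C646, and of the reader Ing5 (0.35), at 5.10, 5.85 and 5.12 against 7.74, 5.94 and 6.88. Rcor2 overlapped between the groups and Ing5 did not. In the other lists the widest differences were 0.22 (Bod1l) in SET1, 0.15 (Hcfc2) in MLL1/2, 0.29 (Ncoa6) in MLL3/4 complexes and 0.25 (Kmt2e) among the other H3K4 enzymes.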

How the data were processed

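Poly-A RNA-seq of 12 samples was used, with groups and replicate numbers from the labels. Per the paper's methods and the submitters' processing notes, the authors mapped reads to mm10 with TopHat2 2.1.1, computed FPKM per gene with Cufflinks 2.2.1 and deposited 1 FPKM table per sample. The libraries were not directional. The tables give no read totals. Low FPKM values in a pair of samples cluster at the ratio of their depths. Among the 6 injected libraries this ratio, taken in 1 direction per pair, was 0.701 to 1.29. Between 15.6% and 59.6% of low values shared it. The widest was C646 replicate 3 at 0.701 times DMSO replicate 3. For Normal against Tumor pairs at most 8.3% of low values shared a ratio, so no depth was read. The experiments have separate tables (26220 and 24304 rows, with 1837 and 0 unnamed rows dropped), so each was fitted apart.

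FPKM was summed over repeated names. Genes reaching 1 FPKM in 3 or more of 6 samples were tested with limma 3.58.1 (R 4.3.3, eBayes with trend) on log2(FPKM + 0.03125), a scale that understates changes of low genes, with Benjamini-Hochberg adjustment; the script was tested on simulated data. The fit across genes gives intervals at 95%. P-values set a difference against the spread between these samples, which for Normal is a spread between pools of 3 mice. Positions and lengths came from GENCODE vM21 (GRCm38, the same build as mm10), with lengths for 93.6% and 93.4% of tested genes (lowess span 0.3 for the length adjustment), and promoters from RefSeq. The genes and lists were chosen with earlier results of these data known. All 10 genes were described in full, and of each partner list at most 4 that passed, or else at most 2, with the largest absolute change. Other assays of the study were not analysed here.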

Additional observations from a re-analysis of the deposited data

How the results depend on the processing

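Alternatives set before these fits were pseudocounts of 1 and 0.25 FPKM, no filter, median-ratio scaling, quantile normalization, the highest row of a repeated name, 2 other forms of eBayes, 1 fit over 12 samples, a replicate block and leaving out each sample; length adjustment was added after seeing the data. Kdm1a and Kdm5b passed in 17 of 17, Kmt2a and Kmt2c in 16 (not with length adjustment), Kmt2b in 9 and Kmt2d in 8. Length adjustment left 0 of the 10 genes lower in Tumor and turned Kmt2d to 0.048, Setd1a to 0.28 and Kdm5a to 0.12. Quantile normalization, which moved the median of all genes from -0.016 to 0.10, turned Setd1a to 0.077 and Kdm5a to 0.035 (4260 genes higher and 3715 lower in place of 3758 and 4128). Leaving out 1 sample gave -0.12 to 0.045 for Setd1a in Tumor and -0.096 to 0.027 for Kdm5a in C646. Kdm5a passed only in the fit over 12 samples (adjusted p = 0.0487, limma) and Setd1b only without Tumor replicate 1. In C646 against DMSO, 1 gene passed as higher in the fit over 12 samples, and 0 to 11 passed as lower on leaving out 1 sample, 11 of them without DMSO replicate 2; none of the 10 genes passed in any alternative.

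Same-numbered samples correlated in their deviations at -0.098 to 0.010 in the first experiment and at 0.070 to 0.17 in the second. Samples of unlike number correlated at -0.0625 to 0.093 and at -0.234 to 0.141. The ranges overlapped, which does not settle whether samples were paired, and the numbers were not taken to pair them. With a replicate block, Kmt2b (adjusted p = 0.0848) and Kmt2d (adjusted p = 0.0683) did not pass, and 3439 genes were higher and 3827 lower in Tumor; in C646 against DMSO, 0 passed.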

Other observations

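Untreated and DMSO-injected tumors are both tumors of MMTV-PyVT mice, but their tables were made separately, so their levels are set side by side with no test. Kdm5a was at 4.12 to 4.47 FPKM in the untreated tumors and at 9.27 to 11 in the DMSO tumors. Kmt2a was at 6.96 to 8.12 against 9.39 to 12.4, and Kmt2b, which is its paralog, at 19.9 to 22.7 against 11.6 to 13.4. Their ratio within a sample, which a scaling of the whole library leaves as it is, was 2.79 to 3.20 in untreated tumors, 0.987 to 1.23 in DMSO tumors and 1.18 to 1.37 in normal tissue. The ratio of Kdm5b to Kdm5a was 4.19 to 7.63 in untreated tumors, 2.04 to 2.71 in DMSO tumors and 1.87 to 2.53 in normal tissue. Kdm1a did not follow these ratios, with 53.3 to 55.3 FPKM in untreated tumors and 44.5 to 52.7 in DMSO tumors, both above the 20.6 to 27.1 of normal tissue. Other ratios differed as well. Summed demethylases to summed methyltransferases was 1.39 to 1.49 in untreated tumors, 1.34 to 1.43 in DMSO tumors and 0.650 to 0.668 in normal tissue. Kmt2d to Kmt2c was 2.21 to 3.13 in untreated tumors, 3.78 to 6.69 in DMSO tumors and 1.91 to 2.55 in normal tissue.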
